A study of Mus musculus with 26 samples.

Results

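Epithelial tumour cells taken from mice with an intact T-cell compartment were compared with the line they came from, grown in culture. The cells are E-A14, a Her2-expressing line of mouse mammary tumour. RNA sequencing gave 6 libraries of sorted EpCAM-positive tumour cells and 2 libraries of cultured cells, 8 of the 26 libraries in the series. The libraries were taken by their titles, and all 16637 of 47730 features with enough counts were tested. EpCAM-positive IgG control tumour cells came from tumours grown in FVB/N hosts, 6 to 8 weeks old when E-A14 cells were placed in a mammary fat pad. The hosts received 100 µg each of rat IgG2a and rat IgG2b 2 times a week, from 2 weeks before implantation until the tumours were taken on day 47. Where a result turns on them, 2 more groups of 6 libraries are used. EpCAM-positive depleted cells came from FVB/N mice given 100 µg each of antibodies against CD4 and CD8a on the same schedule and taken on day 20, and EpCAM-negative IgG control cells were sorted from day 47 tumours of mice given the same rat IgG. E-A14 culture libraries came from suspensions of cells grown in vitro, with no host, no antibody and no tumour. All tumour cells were digested out of the tissue with collagenase and DNase and sorted live as Her2-positive and negative for CD45, CD90 and CD105, which the labels do not describe for the cultures. Growth in the mouse, digestion, sorting and the removal of cells with those markers therefore cannot be told apart in any difference from culture.

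EpCAM is an adhesion molecule of epithelial cells, and its presence on the surface marks tumour cells that keep epithelial features. A mammary tumour cell in a mouse is surrounded by matrix, vessels and leukocytes and meets interferons, growth factors and changing oxygen, whereas a culture supplies abundant nutrients and growth factors on plastic. T and NK cells release interferon-gamma, which acts through JAK kinases to raise antigen presentation, and amino acid supply is sensed in part through the factor ATF4, which raises enzymes that make and import amino acids.

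Total counts ran from 26895429 to 37880702 in the tumour libraries and were 27253363 and 35059744 in the cultures. Levels are given as CPM, the count of a gene scaled by library size and composition, and for the 6 tumour libraries the lowest, the median and the highest value are given in that order. Changes are log2 fold changes of tumour cells over culture with their standard error. A gene is called higher or lower where the adjusted p of edgeR's quasi-likelihood test, fitted to all 26 libraries, is under 0.05. The standard error was derived as the absolute log2 fold change over the square root of that test's F statistic. The labels do not say that the 2 cultures were grown apart, so their spread may be technical. Across genes, log2 levels of the tumour libraries correlated at 0.980 to 0.988 with each other and at 0.884 to 0.905 with the cultures, and the cultures at 0.992 with each other.

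The gate was checked first. Epcam itself was at 815, 1233 and 1416 CPM in the tumour libraries and at 811 and 771 CPM in culture, a difference that did not pass (log2 fold change 0.58 ± 0.39, adjusted p = 0.219) although the lowest tumour library lay above both cultures. The cadherin of epithelial junctions, Cdh1, was at 777, 788 and 849 CPM against 428 and 486 CPM (log2 fold change 0.81 ± 0.28, adjusted p = 0.0167), which did not pass without culture 1 (adjusted p = 0.149) or culture 2 (adjusted p = 0.0753). The rat Neu transgene is a separate entry of the table, and its transcript was lower in the tumour cells, at 266, 287 and 361 CPM, against 517 and 588 CPM in culture (log2 fold change −0.86 ± 0.20, adjusted p = 0.000894). Reads that match both the transgene and mouse Erbb2 cannot be assigned with certainty, and Erbb2 was at 109, 126 and 135 CPM against 94.8 and 93.7 CPM (log2 fold change 0.4 ± 0.13, adjusted p = 0.0102), which did not pass without culture 1 (adjusted p = 0.0717) or culture 2 (adjusted p = 0.0978). The tumour and culture ranges of these 2 entries did not overlap. Ptprc, which encodes the excluded marker CD45, was at 0, 0.688 and 1.82 CPM in the tumour cells and had no counts in culture. It was called higher, a call that did not hold without culture 2 (log2 fold change 7.38). Eng (CD105) was at 1.5, 3.46 and 4.12 CPM against 1.12 and 0.768 CPM, and Thy1 (CD90) had 2 counts over the 6 tumour libraries and 0 in culture.

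Markers of other cells were read as whole lists, and in bulk RNA fewer cells of a type and less RNA per cell cannot be told apart. The summed level of 20 macrophage markers ran from 181 to 375 CPM in the tumour libraries, against 108 and 102 CPM in culture, and 17 of them were higher and 1 lower. Cd14 and Csf1r made up most of that sum, and Cd68 was the lower one. Adgre1, Tyrobp, C1qa and Aif1, picked from the other members, averaged 0.642, 0.82, 2.58 and 0.659 CPM in the tumour cells. The median log2 fold change of the list was 5.44, and 7 members had no counts in culture. With those set at a floor of 3 counts per library the median was 3.9. The summed level of 17 fibroblast markers ran from 1976 to 4305 CPM, against 514 and 537 CPM, with 12 of 14 tested members higher. Dcn, Gsn, Col1a1 and Pdgfrb made up most of it, Thy1, which encodes a marker the sort excluded, and Fap were too low to be tested, and C7 was at 0 in all 8 libraries. Other lists were read likewise. Endothelial markers summed to 21.4 to 80.9 CPM against 10.6 and 9.09 CPM, with 8 of 15 members higher and Egfl7 lower, and 4 higher without culture 1 or without culture 2. Pericyte and smooth muscle markers summed to 423 to 921 CPM against 17.2 and 23.3 CPM, with 4 of 10 higher and 0 lower, Pdgfrb and Mcam making up most of the sum. Dendritic cell markers summed to 32.7 to 46.6 CPM against 11.2 and 3.45 CPM, mostly Zbtb46, with 2 of 5 higher and 0 lower. B and plasma cell markers summed to 1.15 to 10.3 CPM against 0.449 and 0.282 CPM, with 2 of 4 higher, and 0 higher without culture 1 or without culture 2. T and NK cell markers summed to 1.36 to 4.45 CPM against 2.18 and 1.64 CPM, with 0 of 5 tested members called, and Ifng, the gene of interferon-gamma, had 0 counts in the tumour libraries. The macrophage and fibroblast marker sums were higher than in culture, as were many of the immune and matrix genes described further on. Dcn, Col1a1 and Pdgfrb are both fibroblast markers and genes described there. The part of such cells in those results was not tested.

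**Figure D1:**
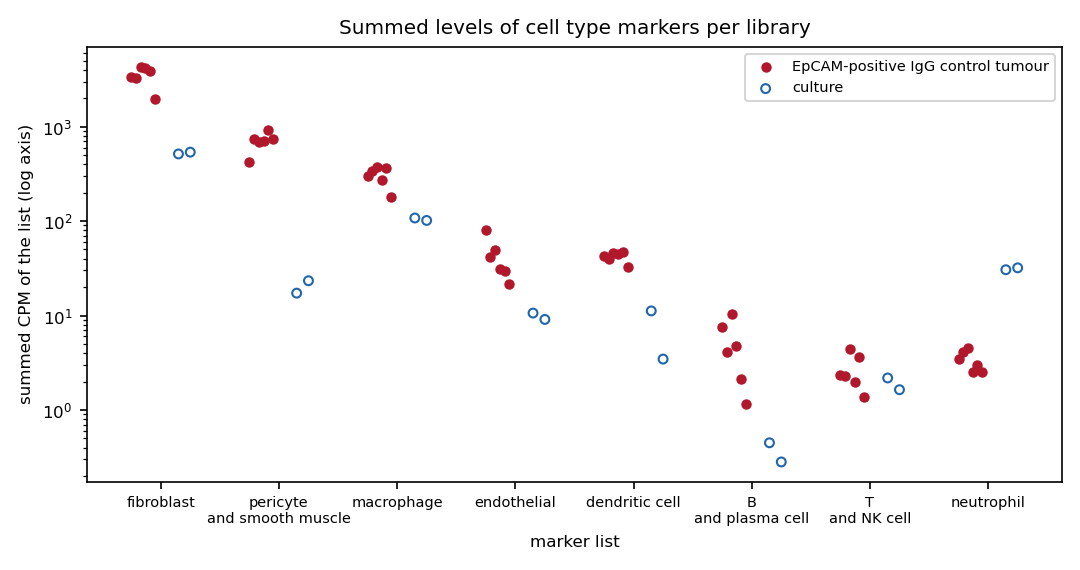
Summed CPM of marker lists (log axis) for each of the 6 EpCAM-positive IgG control tumour libraries (filled points) and, to their right, each of the 2 cultures (open points). Fibroblast, pericyte, macrophage and endothelial sums lay above both cultures in every tumour library, neutrophil sums lay below them, and T and NK cell sums overlapped.

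Of the 16637 tested features, 8337 (50.1%) differed between tumour cells and culture, 4606 (27.7%) being higher and 3731 (22.4%) lower in the tumour cells. A change of at least 1 log2 unit was called higher in 3093 (18.6%) and lower in 1702 (10.2%), and the median log2 fold change over all features was 0.17. In all 6 tumour libraries 4847 features (29.1%) were above both cultures, and 4255 (25.6%) were below both. These shares are the background for each list of genes described here, and with so many features called a list near them is not set apart.

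**Figure D2:**
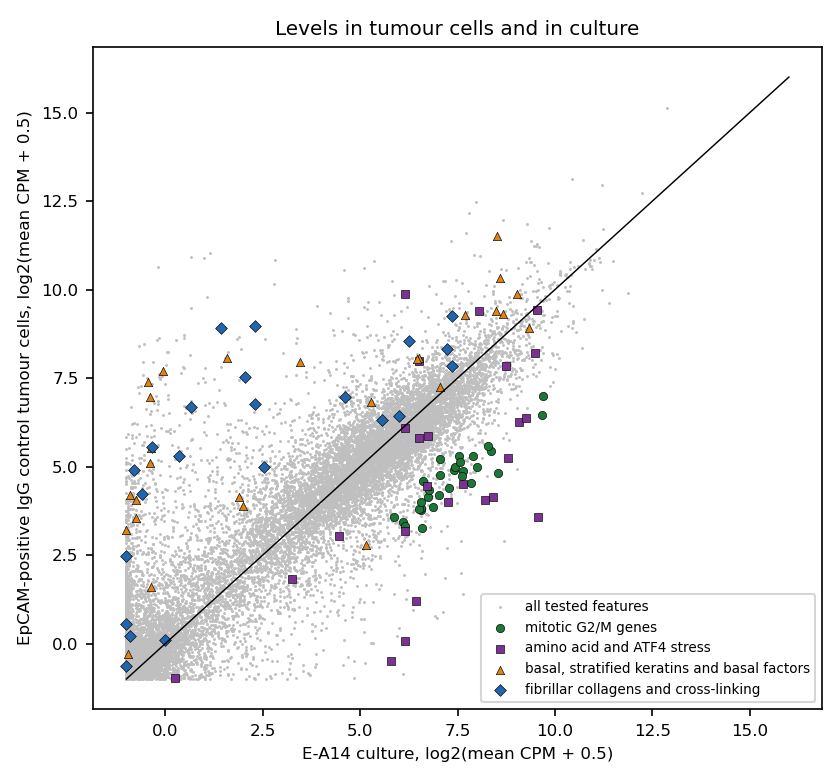
The log2 of mean CPM + 0.5 of each tested feature in the 6 tumour libraries (vertical) against the 2 cultures (horizontal), with the line of equal levels, and members of 4 lists marked. Mitotic and amino acid genes lie mostly below the line, and basal and fibrillar collagen genes mostly above it, some of them close to 0 CPM in culture.

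A few secreted proteins took a larger share of the RNA in the tumour cells. The 10 most abundant genes held 7.18 to 10.2% of counts in the tumour libraries against 3.87 and 3.64% in culture. Osteopontin, the secreted phosphoprotein encoded by Spp1, was at 26563, 33865 and 49515 CPM, against 7628 and 7373 CPM (log2 fold change 2.26 ± 0.25, adjusted p = 2.79e-08). Fibronectin, encoded by Fn1, was at 6853, 8637 and 12075 CPM against 1286 and 1505 CPM (log2 fold change 2.67 ± 0.26, adjusted p = 4.22e-09). The copper-carrying ferroxidase ceruloplasmin, Cp, was at 4102, 4488 and 5441 CPM against 211 and 228 CPM (log2 fold change 4.38 ± 0.25, adjusted p = 2.17e-13). All 6 tumour libraries lay above both cultures for these genes. Ctsd, a lysosomal protease, Cst3, an inhibitor of cysteine proteases, Itm2b, a membrane protein, and Slpi, an inhibitor of serine proteases, were among the other large gains, with log2 fold changes of 1.76 to 3.89. Among the largest losses of share, Krt7, a keratin of simple epithelia, was at 557, 1024 and 1239 CPM against 3857 and 3651 CPM (log2 fold change −1.96 ± 0.58, adjusted p = 0.0066). Nars, which charges tRNA with asparagine, was at 292, 332 and 358 CPM against 1627 and 1665 CPM (log2 fold change −2.33 ± 0.08, adjusted p = 9.13e-17). Lgals1, a secreted lectin, Wfdc2, a secreted protease inhibitor, and Ncl, a nucleolar protein, were lower with log2 fold changes of −1.76, −1.57 and −1.42.

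Some genes were read in every tumour library and in neither culture. Tspan8, a tetraspanin of glandular epithelia, was at 20.5, 57.3 and 79.7 CPM in the tumour cells with no counts in culture, which makes it at least 649-fold higher against a floor of 3 counts per library. Cables1, a cell cycle regulator, Pdlim3, an actin-associated protein of muscle-type cells, and Wfdc12, a small secreted protein, were at least 513, 436 and 387-fold higher on the same floor. Calml3, a calmodulin-like protein of stratified epithelia, was at least 266-fold higher, and Sncg, a synuclein, at least 294-fold. Igfbp5, which binds insulin-like growth factors, had a few counts in culture and was at 772, 1653 and 2370.3 CPM against 0.385 and 0.358 CPM (log2 fold change 12.05 ± 1.28, adjusted p = 1.58e-08). Among the 2891 features that met the naming conditions for a rise, 20 had no counts in culture.

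In the other direction, several genes well read in culture were close to absent from the tumour cells. Siglecg, a sialic acid-binding receptor best known from B cells, was at 0 to 0.0606 CPM in the tumour libraries, 2 counts in all, against 29.4 and 26.8 CPM, so the level in culture was 2713 times that in the tumour cells (95% counting interval 749.9 to 22414). Wnt7a, a Wnt ligand, was at 0, 0 and 0.296 CPM against 67.9 and 68 CPM (log2 fold change −10.37 ± 0.88, adjusted p = 3.34e-09), and without tumour library 2, which held its highest level, the log2 fold change was −13.89. Tigit, an inhibitory receptor of lymphocytes, was at 0, 0.206 and 0.329 CPM against 33.4 and 35.8 CPM (log2 fold change −7.49 ± 0.59, adjusted p = 8.71e-11). These immune-named transcripts, with Klra1 and Klra4, members of the family of NK cell lectin receptors, were read in cultures that had no counts of Ptprc. Klra4 was at 0.514, 2.3 and 3.62 CPM against 209 and 192 CPM (log2 fold change −6.55 ± 0.50, adjusted p = 4.62e-11), and the family's members are near-identical in sequence, so which of them gave the reads is uncertain. Serpinb2, an inhibitor of plasminogen activators, was at 0, 1.34 and 2.18 CPM against 114 and 135 CPM, Il24, a cytokine of the interleukin-10 family, at 0.289, 0.875 and 3.28 CPM against 134 and 146 CPM, and S100a7a, a small calcium-binding protein of skin, at 0.804, 1.15 and 1.67 CPM against 110.3 and 129 CPM, with log2 fold changes of −6.76, −6.68 and −6.64.

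Genes of cell division were lower in the tumour cells. Of 30 mitotic genes, 0 of 30 were higher, 30 lower and 0 did not pass (median log2 fold change −2.75), against 22.4% lower among all features, and of 30 genes of the G1/S transition and DNA replication, 0 of 30 were higher, 29 lower and 1 did not pass (median log2 fold change −1.85). Cyclin B1 and Cdk1 together drive entry into mitosis, and their promoters are shown because the capitals, CCAAT boxes (ATTGG where the match is on the other strand) and TTTGAA elements, are motifs by which many mitotic genes are known to be controlled. The sequences are the 120 bases before the start of the gene in RefSeq on GRCm38.p6, given in the direction of transcription.
Ccnb1 (chr13:100786487-100786606, minus strand): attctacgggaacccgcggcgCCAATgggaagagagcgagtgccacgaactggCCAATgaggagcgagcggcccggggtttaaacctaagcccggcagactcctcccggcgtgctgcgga
Cdk1 (chr10:69352913-69353032, minus strand): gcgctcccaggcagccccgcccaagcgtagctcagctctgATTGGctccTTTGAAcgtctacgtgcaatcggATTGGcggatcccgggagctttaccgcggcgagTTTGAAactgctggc
CCAAT was found on either strand in 21 of 26 (80.8%) promoters of the matched mitotic genes and 12289 of 32851 (37.4%) of all promoters. It was also found in 15 of 21 (71.4%) promoters of MHC class I genes, a list that rose, and 15 of 25 (60.0%) of amino acid and ATF4 genes. TTTGAA was found in 21 of 26 (80.8%) mitotic promoters against 5878 of 32851 (17.9%), in windows from 250 bases before the start to 50 after.

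The mitotic kinase Cdk1 was at 24.2, 46.6 and 54.9 CPM in the tumour libraries and at 325 and 325 CPM in culture (log2 fold change −2.91 ± 0.22, adjusted p = 3.06e-11). Ccnb1 was at 4.31, 8.54 and 14.1 CPM against 93.4 and 97 CPM (log2 fold change −3.38 ± 0.26, adjusted p = 7.25e-11). Both ranges were far apart, with every tumour library below the cultures. Top2a, the topoisomerase that untangles replicated DNA, was at 51.4, 86.4 and 125 CPM against 783 and 851 CPM (log2 fold change −3.23 ± 0.23, adjusted p = 1.02e-11). Ube2c, which tags mitotic proteins for destruction, was at 13.4, 28.1 and 42 CPM against 379 and 360.0 CPM (log2 fold change −3.75 ± 0.27, adjusted p = 1.63e-11). Mki67, the gene of the Ki-67 antigen, was at 17.7, 38.3 and 55.9 CPM against 102 and 163 CPM (log2 fold change −1.85 ± 0.31, adjusted p = 1.55e-05). The replicative helicase subunit Mcm2 was at 53.8, 73.6 and 85 CPM against 366 and 369 CPM (log2 fold change −2.36 ± 0.16, adjusted p = 5.74e-12). Rrm2, the subunit of the enzyme that makes deoxynucleotides, was at 30.0, 64.1 and 93.2 CPM against 397 and 461 CPM (log2 fold change −2.81 ± 0.25, adjusted p = 5.88e-10). Ccne2, of the G1/S and replication list, was the 1 member that did not pass, at 4.81 against 8.76 CPM on average. Cyclin D1, Ccnd1, which growth factors induce, was at 434, 515 and 587 CPM against 1258 and 1307 CPM (log2 fold change −1.35 ± 0.10, adjusted p = 4.8e-11). Of the other cell cycle inhibitors and p53 targets, 11 of 24 were higher, 6 lower and 7 did not pass (median log2 fold change 0.34). Cdkn1a, the inhibitor p21, was at 204, 323 and 395 CPM against 183 and 155 CPM (log2 fold change 0.9 ± 0.19, adjusted p = 0.000336).

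Genes that build ribosomes moved with the division genes. Of 30 genes of ribosome biogenesis and Myc, 2 of 30 were higher, 26 lower and 2 did not pass (median log2 fold change −1.28). Nop56, a core protein of the particles that modify ribosomal RNA, was at 45.2, 50.6 and 65.2 CPM against 215 and 224 CPM (log2 fold change −2.03 ± 0.15, adjusted p = 1.63e-11). Mybbp1a, a nucleolar protein, was at 137, 151 and 177 CPM against 484 and 530.4 CPM (log2 fold change −1.72 ± 0.12, adjusted p = 1.09e-11). Myc, the factor that raises many of these genes, was at 104, 125 and 151 CPM against 262 and 239.8 CPM (log2 fold change −1.01 ± 0.18, adjusted p = 2.89e-05). The higher members were Ubtf, a factor of RNA polymerase I (131 against 105 CPM), and Mycn, which had no counts in culture and was at least 20.4-fold higher. Of the cytoplasmic ribosomal proteins, 0 of 47 were higher, 41 lower and 6 did not pass (median log2 fold change −0.77), but these genes share reads with many processed pseudogenes, so their levels are uncertain.

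Genes of amino acid synthesis and import were also lower. Of the genes of amino acid supply and the ATF4 response, 3 of 25 were higher, 18 lower and 4 did not pass (median log2 fold change −2.83). Asns makes asparagine and is a textbook ATF4 target, and its promoter is shown with TGATGNAA, the core to which ATF4 binds together with C/EBP factors, in capitals, a motif added after the values were seen.
Asns (chr6:7693210-7693329, minus strand): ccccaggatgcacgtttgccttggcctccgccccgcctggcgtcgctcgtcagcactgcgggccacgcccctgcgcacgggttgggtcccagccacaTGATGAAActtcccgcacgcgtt
The motif was found on either strand in 7 of 25 (28%) promoters of this list and 1304 of 32851 (3.97%) of all promoters.

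Asns was at 6.59, 11.3 and 16.7 CPM against 762 and 747 CPM (log2 fold change −6.05 ± 0.40, adjusted p = 3.1e-12). Mthfd2, a mitochondrial enzyme of folate metabolism, was at 12.3, 17.2 and 22.7 CPM against 347 and 331 CPM (log2 fold change −4.31 ± 0.20, adjusted p = 8e-15). Shmt2, which takes a carbon from serine in mitochondria, was at 68.1, 76 and 81.4 CPM against 563 and 513 CPM (log2 fold change −2.83 ± 0.11, adjusted p = 2.68e-16). Psph, the last enzyme of serine synthesis, was at 13.3, 16.1 and 17.7 CPM against 159 and 145 CPM (log2 fold change −3.29 ± 0.12, adjusted p = 2.68e-16), and the enzymes before it, Phgdh and Psat1, averaged 22.2 against 198 CPM and 16 against 292 CPM. Slc7a11, the cystine importer, was at 0, 0.0477 and 1.02 CPM against 51.4 and 58.9 CPM (log2 fold change −7.88 ± 0.99, adjusted p = 2.56e-07), and −9.8 on the log2 scale without tumour library 1, its highest. Cth, which makes cysteine, was at 0, 0.544 and 1.15 CPM against 69.5 and 71.5 CPM (log2 fold change −6.97 ± 0.74, adjusted p = 1.62e-08). Atf4 itself was at 214, 311 and 321 CPM against 757 and 683 CPM (log2 fold change −1.28 ± 0.14, adjusted p = 1.52e-08). Its target Trib3 was at 23.3, 38.7 and 43.9 CPM against 449.9 and 439 CPM (log2 fold change −3.58 ± 0.24, adjusted p = 5.41e-12). Higher members were Atf3 (log2 fold change 3.73 ± 0.53, adjusted p = 1.8e-06), Cebpb (log2 fold change 1.35 ± 0.24, adjusted p = 4.27e-05) and Ddit4 (253 against 91.2 CPM), of which Atf3 is also an immediate-early gene and Ddit4 a hypoxia gene.

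Redox and sterol genes were lower as well. Of the NRF2 and redox genes, 6 of 25 were higher, 14 lower and 5 did not pass (median log2 fold change −0.6). Txnrd1, a thioredoxin reductase, was at 99.6, 126 and 162 CPM against 474 and 567 CPM (log2 fold change −2.02 ± 0.13, adjusted p = 3.49e-12). G6pdx, the first enzyme of the pentose phosphate pathway, was at 86.2, 93.5 and 106 CPM against 357 and 328 CPM (log2 fold change −1.87 ± 0.10, adjusted p = 3.99e-14). Of the genes of cholesterol synthesis and transport, 2 of 27 were higher, 22 lower and 3 did not pass (median log2 fold change −1.22). Msmo1 and Dhcr7, enzymes of late steps of cholesterol synthesis, were lower, with means of 145 against 483 CPM and 103 against 263 CPM and log2 fold changes of −1.74 and −1.35. The higher members were both exporters of cholesterol, Abca1 at 169, 181 and 205 CPM against 11.7 and 11.6 CPM (log2 fold change 3.99 ± 0.32, adjusted p = 1.43e-10) and Abcg1, with no counts in culture and at least 10.4-fold higher. Of the genes of the unfolded protein response, 5 of 20 were higher, 9 lower and 6 did not pass (median log2 fold change −0.17). The share of higher members was near the background.

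**Figure D3:**
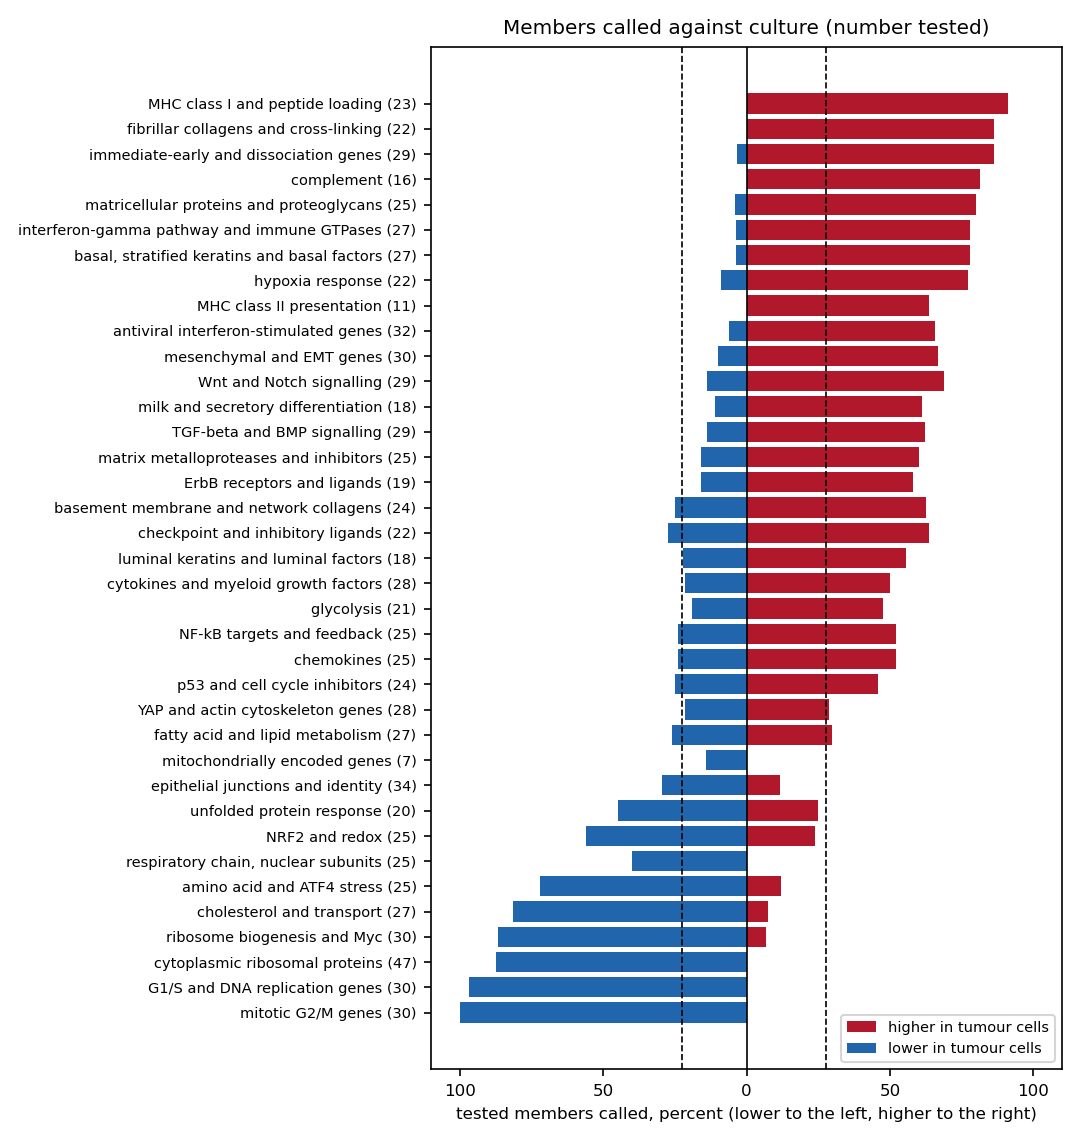
Share of tested members of each list called higher (right of 0) or lower (left of 0) in EpCAM-positive IgG control tumour cells than in culture, in percent; dashed lines mark the shares among all tested features, 27.7% higher and 22.4% lower. Mitotic, replication and ribosome lists extend to the left, and basal, collagen, MHC class I and immediate-early lists to the right.

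Junction and identity genes of epithelia mostly did not pass. Of these, 4 of 34 were higher, 10 lower and 20 did not pass (median log2 fold change −0.4), a share of lower members near the background, and 6 were lower without culture 1. The tight junction protein Ocln was at 2.52, 8.39 and 9.94 CPM against 54.6 and 58.3 CPM (log2 fold change −2.92 ± 0.34, adjusted p = 8.6e-08). Ehf, an ETS factor of epithelia, was at 164, 174 and 287 CPM against 17.4 and 18.8 CPM (log2 fold change 3.41 ± 0.54, adjusted p = 8.17e-06). Claudins 3, 4 and 7 were lower, with log2 fold changes of −0.96, −2.04 and −1.13.

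Most basal and stratified genes rose. Of these, 21 of 27 were higher, 1 lower and 5 did not pass (median log2 fold change 3.01). Trp63, the p63 factor that specifies basal cells, was at 118, 176 and 185 CPM in the tumour cells and 0.192 and 0.282 CPM in culture (log2 fold change 9.41 ± 0.46, adjusted p = 1.45e-14). Krt14, the keratin of basal cells, was at 2612, 2896 and 3259.8 CPM against 367 and 357 CPM (log2 fold change 3.01 ± 0.26, adjusted p = 3.08e-10). Col17a1, a collagen of hemidesmosomes, was at 207, 262 and 322 CPM against 2.79 and 2.2 CPM (log2 fold change 6.74 ± 0.52, adjusted p = 4.77e-11). The lowest tumour library was above both cultures for each. Krt80 was the lower member, at 6.4 against 35 CPM, and the smooth muscle genes of mammary myoepithelium Acta2 (45.8 against 0.279 CPM) and Oxtr, the oxytocin receptor (18 against 0.0288 CPM), were higher.

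Luminal and milk genes were mostly higher where they passed, but the summed level of the luminal list was lower. That sum ran from 2631 to 3801 CPM in the tumour libraries, against 7871 and 7677 CPM in culture. Of the luminal genes, 10 of 18 were higher, 4 lower and 4 did not pass (median log2 fold change 3.92, or 2.69 with genes at 0 counts at their bound), and 6 and 5 were higher without culture 1 and culture 2. Elf5, the factor of luminal progenitors and alveolar cells, was at 14.2, 23.8 and 47.1 CPM against 0.834 and 0.614 CPM (log2 fold change 5.12 ± 0.69, adjusted p = 7.2e-07). The luminal keratin gene Krt18 was at 834, 1048 and 1157 CPM against 2377 and 2360.1 CPM (log2 fold change −1.22 ± 0.16, adjusted p = 4.26e-07). Of the milk and secretory genes, 11 of 18 were higher, 2 lower and 5 did not pass (median log2 fold change 3.5, or 2.41 with genes at 0 counts at their bound). Wfdc18, a secreted protein of mammary epithelium, was at 145, 268 and 542 CPM against 0.545 and 0.563 CPM (log2 fold change 9.06 ± 0.82, adjusted p = 1.07e-09). Lcn2, an iron-scavenging lipocalin, was at 743, 1279 and 1584 CPM against 56.5 and 55.7 CPM (log2 fold change 4.43 ± 0.71, adjusted p = 8.75e-06). Mfge8, the milk fat globule protein, was at 1095, 1352 and 2283 CPM against 321 and 314 CPM (log2 fold change 2.21 ± 0.22, adjusted p = 3.7e-09).

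Matrix genes rose in the EpCAM-positive cells. Of the fibrillar collagens and their cross-linking enzymes, 19 of 22 were higher, 0 lower and 3 did not pass (median log2 fold change 4.8, or 3.92 with genes at 0 counts at their bound). Of the matricellular proteins and proteoglycans, 20 of 25 were higher, 1 lower and 4 did not pass (median log2 fold change 4.34). Of the mesenchymal genes, 20 of 30 were higher, 3 lower and 7 did not pass (median log2 fold change 2.57, or 2.24 with genes at 0 counts at their bound). Postn, a matrix protein, was at 1609, 2025 and 2859.8 CPM against 1.92 and 1.48 CPM (log2 fold change 10.26 ± 0.51, adjusted p = 1.93e-14). Col6a1, a chain of the beaded-filament collagen VI, was at 523, 656 and 1069 CPM against 1.31 and 0.87 CPM (log2 fold change 9.36 ± 0.69, adjusted p = 2.91e-11). Col1a1, a chain of collagen I, was at 268, 484 and 683 CPM against 2.28 and 2.07 CPM (log2 fold change 7.8 ± 0.83, adjusted p = 1.57e-08). Dcn, the proteoglycan decorin, was at 781, 2041 and 2346 CPM against 1.6 and 1.38 CPM (log2 fold change 10.31 ± 0.91, adjusted p = 6.1e-10). Sparc, a collagen-binding protein, was at 1122, 1505 and 1828 CPM against 22.9 and 24 CPM (log2 fold change 6.00 ± 0.23, adjusted p = 3.18e-16). No tumour library overlapped the cultures in any of them. The fibroblast marker sum was higher in the same libraries, with 12 of 14 tested members higher. Dcn and Col1a1 are counted in that sum, so it is not a separate observation. The part of fibroblasts was not tested.

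Of the basement membrane and network collagens, 15 of 24 were higher, 6 lower and 3 did not pass (median log2 fold change 1.32), and 9 were higher without culture 1. Col18a1 was at 2955, 3413 and 3792 CPM against 919 and 909 CPM (log2 fold change 1.9 ± 0.15, adjusted p = 4.79e-11), whereas the chains of the common collagen IV, Col4a1 and Col4a2, were lower at 119 against 459 CPM and 90.5 against 372 CPM. The receptor of platelet-derived growth factor Pdgfrb, a gene of pericytes and fibroblasts, was at 234, 445 and 472 CPM against 0.866 and 0.947 CPM (log2 fold change 8.77 ± 0.53, adjusted p = 7.73e-13). It is also the largest part of the pericyte and smooth muscle marker sum, which was higher in the same libraries, and the part of such cells was not tested. Zeb1, a repressor of epithelial genes, was at 15.7, 24.4 and 32.9 CPM against 2.89 and 1.59 CPM (log2 fold change 3.52 ± 0.39, adjusted p = 3.02e-08). Snai2, another such repressor, was at 13.9, 18.3 and 24.8 CPM against 3.24 and 3.61 CPM (log2 fold change 2.46 ± 0.46, adjusted p = 6.58e-05). Vimentin, Vim, was at 880.1, 1051 and 1486 CPM against 333 and 359.5 CPM (log2 fold change 1.66 ± 0.17, adjusted p = 8.07e-09). Axl, a receptor kinase also counted among mesenchymal genes, was lower, at 195, 282 and 346 CPM against 946 and 1035 CPM (log2 fold change −1.81 ± 0.15, adjusted p = 1.86e-10). Of the matrix proteases and inhibitors, 15 of 25 were higher, 4 lower and 6 did not pass (median log2 fold change 1.38). The urokinase gene Plau and its receptor Plaur were lower, at 13.8, 15.7 and 23.5 CPM against 101 and 127 CPM and at 8.71, 15.9 and 30.3 CPM against 169.7 and 150.1 CPM, with log2 fold changes of −2.71 and −3.24.

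**Figure D4:**
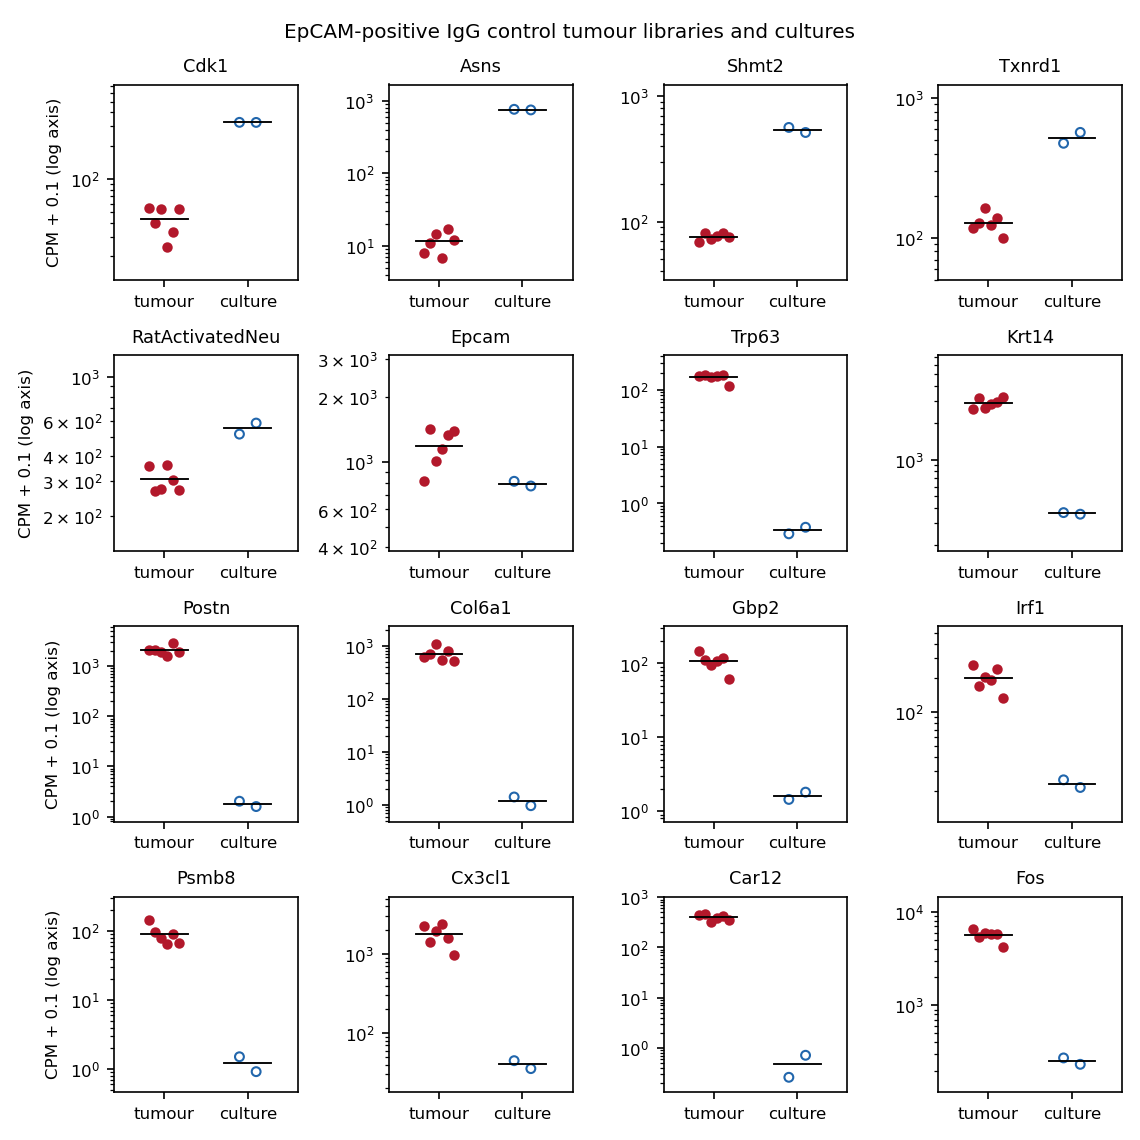
CPM (log axis, 0.1 added) of 16 genes in each of the 6 EpCAM-positive IgG control tumour libraries (filled points, left) and the 2 cultures (open points, right), with a bar at each group's mean. RatActivatedNeu and the first row's genes lie below culture in the tumour cells, and the remaining genes above it.

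Interferon-responsive genes were higher in the tumour cells. Promoters of genes of the interferon-gamma list that rose are shown, with 2 motifs in capitals. They are the core of the interferon-stimulated response element, TTTC and TTTC parted by any 2 bases, and the core of the gamma-activated site, TTCNNNGAA. All are 120 bases before the start in RefSeq on GRCm38.p6.
Gbp2 (chr3:142620543-142620662, plus strand): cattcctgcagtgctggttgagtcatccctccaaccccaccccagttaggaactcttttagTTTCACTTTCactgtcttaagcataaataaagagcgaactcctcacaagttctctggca
Gbp7 (chr3:142530216-142530335, plus strand): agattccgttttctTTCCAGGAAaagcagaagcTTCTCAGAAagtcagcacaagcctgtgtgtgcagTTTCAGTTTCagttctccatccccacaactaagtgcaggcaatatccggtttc
Irf1 (chr11:53769894-53770013, plus strand): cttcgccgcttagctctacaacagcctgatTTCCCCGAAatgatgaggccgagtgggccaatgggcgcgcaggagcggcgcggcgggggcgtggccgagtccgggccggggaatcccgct
Of the promoters of the interferon-gamma list, 11 of 24 (45.8%) held the first motif against 1131 of 32851 (3.44%) of all, and 10 of 24 (41.7%) the second against 2726 of 32851 (8.3%), on either strand. Antiviral promoters held the first in 10 of 24 (41.7%) and the second in 6 of 24 (25%). MHC class I promoters held the first in 5 of 21 (23.8%) and the second in 1 of 21 (4.76%), below the share of all promoters.

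Of the interferon-gamma pathway and immune GTPases, 21 of 27 were higher, 1 lower and 5 did not pass (median log2 fold change 3.07). Gbp2, a guanylate-binding protein that acts against intracellular pathogens, was at 62.3, 109 and 146 CPM in the tumour cells against 1.35 and 1.71 CPM in culture (log2 fold change 6.11 ± 0.37, adjusted p = 6.78e-13). Gbp7 was at 30.4, 36 and 50.3 CPM against 4.78 and 3.61 CPM (log2 fold change 3.19 ± 0.24, adjusted p = 3.33e-11). The GTPase Iigp1 was at 23.9, 63 and 169 CPM against 0.289 and 0.256 CPM (log2 fold change 8.04 ± 1.05, adjusted p = 4.31e-07). Irf1, a factor induced by interferon-gamma, was at 132, 196 and 260.3 CPM against 25.2 and 21.6 CPM (log2 fold change 3.09 ± 0.27, adjusted p = 6.18e-10). Every tumour library was above both cultures. Irf8, a factor of myeloid cells, was the lower member (0.804 against 7.18 CPM), and Cd274, which encodes PD-L1, did not pass at 0.314, 1.22 and 3.06 CPM against 1.03 and 0.461 CPM (log2 fold change 1.01 ± 0.97, adjusted p = 0.4). Of the antiviral genes, 21 of 32 were higher, 2 lower and 9 did not pass (median log2 fold change 1.35). Zbp1, a sensor of nucleic acids, was at 44.2, 55.5 and 64.2 CPM against 0.834 and 1.38 CPM (log2 fold change 5.6 ± 0.26, adjusted p = 4.45e-15), while Isg15 and Mx1 averaged 15.4 against 15.8 CPM and 2.63 against 3.79 CPM and did not pass.

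Antigen presentation through MHC class I rose broadly. Of its genes, 21 of 23 were higher, 0 lower and 2 did not pass (median log2 fold change 1.97). Psmb8, a subunit of the immunoproteasome that cuts peptides for presentation, was at 65.8, 85.2 and 144 CPM against 1.41 and 0.819 CPM (log2 fold change 6.36 ± 0.42, adjusted p = 3.08e-12). Tap2, which carries the peptides, was at 86.5, 107 and 137 CPM against 24.4 and 22 CPM (log2 fold change 2.24 ± 0.17, adjusted p = 2.74e-11). Tapbp, which loads them, was at 571, 651 and 824 CPM against 142 and 151 CPM (log2 fold change 2.19 ± 0.11, adjusted p = 2.38e-14). The heavy chain gene H2-K1 and B2m changed less and overlapped the cultures. H2-K1 was at 509, 823 and 1452 CPM against 604 and 526 CPM (log2 fold change 0.61 ± 0.24, adjusted p = 0.0393), and it did not pass without tumour libraries 1 (log2 fold change 0.40, adjusted p = 0.0861), 2 (adjusted p = 0.0542) or 5 (adjusted p = 0.0596), or without culture 1 (adjusted p = 0.105) or 2 (adjusted p = 0.26). B2m was at 422, 714 and 1300.3 CPM against 467 and 402 CPM (log2 fold change 0.81 ± 0.27, adjusted p = 0.0137) and did not pass without culture 1 (adjusted p = 0.0556) or 2 (adjusted p = 0.15). Class I heavy chain genes are close in sequence, so reads may be split among them.

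Class II genes were higher from a low base and uneven among tumours, as 7 of 11 were higher, 0 lower and 4 did not pass (median log2 fold change 5.45, or 3.08 with genes at 0 counts at their bound). Cd74, the invariant chain, was at 7.71, 36.5 and 248 CPM against 0.481 and 0.691 CPM (log2 fold change 6.8 ± 1.17, adjusted p = 2.57e-05). H2-Aa, a class II chain, was at 2.51, 13.5 and 76.1 CPM against 0.192 and 0.154 CPM (log2 fold change 6.95 ± 1.23, adjusted p = 3.44e-05). Tumour library 1 held the highest value of both, and without it the log2 fold changes were 5.66 and 5.94. Class II is also the hallmark of macrophages, dendritic and B cells. The macrophage, dendritic and B cell marker sums, with Ptprc at 0, 0.688 and 1.82 CPM, were likewise higher than in culture. In tumour library 1 these sums were 299, 43.1 and 7.58 CPM, and their highest values were 375, 46.6 and 10.3 CPM, in libraries 3, 5 and 3. A few genes made up most of the macrophage and dendritic sums. Outside these lists, F13a1, made by macrophages, and Pou2af1, best known from B cells, were highest in library 1, at 112 and 94.6 CPM. The part of such cells was not tested.

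Chemokine and cytokine genes were called higher more often than the 27.7% of all features. Their shares of lower members were near the background of 22.4%. Of the chemokines, 13 of 25 were higher, 6 lower and 6 did not pass (median log2 fold change 3.92, or 1.94 with genes at 0 counts at their bound), and 6 were higher without culture 1 and 6 without culture 2. Cx3cl1, the membrane-bound attractant of monocytes and lymphocytes, was at 982, 1778 and 2412 CPM against 44.8 and 35.5 CPM (log2 fold change 5.47 ± 0.34, adjusted p = 1.01e-12). Of the cytokines and myeloid growth factors, 14 of 28 were higher, 6 lower and 8 did not pass (median log2 fold change 1.12). Il33, an alarmin of epithelia, was at 243, 311 and 435 CPM against 3.01 and 3.66 CPM (log2 fold change 6.57 ± 0.39, adjusted p = 4.71e-13). Tgfb3, a TGF-beta ligand, was at 369, 404 and 494 CPM against 39.2 and 44.5 CPM (log2 fold change 3.31 ± 0.18, adjusted p = 7.06e-14). Tnf had no counts in culture and was at 1.64, 4.22 and 8.1 CPM in the tumour cells, at least 51.4-fold higher. Among the lower members was Csf3, the growth factor of neutrophils (log2 fold change −3.82 ± 0.30, adjusted p = 8.14e-11). Il1a, an alarmin, was at 0.428, 1.25 and 3.21 CPM against 78.5 and 85.2 CPM (log2 fold change −5.82 ± 0.62, adjusted p = 1.62e-08). Tslp was at 0, 0.0437 and 0.119 CPM against 7.57 and 9.9 CPM (log2 fold change −7.43 ± 0.74, adjusted p = 5.14e-09). Csf1, the growth factor of macrophages, did not pass, at 173, 213 and 277 CPM against 247 and 267 CPM.

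Of the checkpoint and inhibitory ligands, 14 of 22 were higher, 6 lower and 2 did not pass (median log2 fold change 1.56, or 1.3 with genes at 0 counts at their bound). Cd200, which signals to myeloid cells, was at 1021, 1231 and 1288 CPM against 136 and 151 CPM (log2 fold change 3.07 ± 0.15, adjusted p = 1.93e-14). The lectin Lgals9 was at 234, 247 and 281 CPM against 13.9 and 16.7 CPM (log2 fold change 4.03 ± 0.23, adjusted p = 2.36e-13). Of the complement genes, 13 of 16 were higher, 0 lower and 3 did not pass (median log2 fold change 4.09, or 2.92 with genes at 0 counts at their bound). Masp1, a protease of the lectin pathway, was at 35.7, 56.6 and 121 CPM against 0.321 and 0.102 CPM (log2 fold change 8.43 ± 0.67, adjusted p = 1.06e-10), with log2 fold changes of 9.37 without culture 1 and 7.75 without culture 2, and C3 at 367, 696 and 1177 CPM against 164 and 206 CPM (log2 fold change 1.94 ± 0.32, adjusted p = 1.2e-05). Of the NF-kB targets, 13 of 25 were higher, 6 lower and 6 did not pass (median log2 fold change 1.12). Nfkbiz was at 395, 622 and 904 CPM against 57.9 and 57 CPM (log2 fold change 3.44 ± 0.32, adjusted p = 2.01e-09).

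Most hypoxia genes rose, and fewer of the glycolysis genes did. Of the hypoxia genes, 17 of 22 were higher, 2 lower and 3 did not pass (median log2 fold change 1.38, or 1.17 with genes at 0 counts at their bound). Car12, a carbonic anhydrase, was at 315, 401 and 464 CPM against 0.16 and 0.614 CPM (log2 fold change 9.91 ± 0.66, adjusted p = 3.47e-12), with 9.32 without culture 1 and 11.21 without culture 2. Adm, the vessel-dilating peptide adrenomedullin, was at 87.7, 108 and 159 CPM against 1.54 and 2.51 CPM (log2 fold change 5.78 ± 0.46, adjusted p = 8.51e-11). Epas1, the HIF-2 alpha factor, was at 104, 111 and 143 CPM against 18.3 and 17.4 CPM (log2 fold change 2.71 ± 0.24, adjusted p = 7.98e-10). Hif1a was lower, at 88.9 against 184 CPM. Of the glycolysis genes, 10 of 21 were higher, 4 lower and 7 did not pass (median log2 fold change 0.41), a share of lower members near the background. Pfkfb3, a regulator of glycolysis, was at 27.6, 35.1 and 78.2 CPM against 1.99 and 3.76 CPM (log2 fold change 3.94 ± 0.62, adjusted p = 8.03e-06). Pfkfb4, its relative, was at 1.99, 4.54 and 7.18 CPM against 83.6 and 103 CPM (log2 fold change −4.27 ± 0.28, adjusted p = 2.18e-12). The glucose transporter gene Slc2a1 did not pass, at 231, 432 and 467 CPM against 324 and 308 CPM (log2 fold change 0.36 ± 0.19, adjusted p = 0.122), but passed without tumour library 6, its lowest (log2 fold change 0.50, adjusted p = 0.00533).

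Of the fatty acid and lipid genes, 8 of 27 were higher, 7 lower and 12 did not pass (median log2 fold change 0.16). Both shares were near the background, and 5 were higher without culture 1. Srebf1, the factor that drives fatty acid synthesis, was at 612, 784 and 954 CPM against 199 and 170.1 CPM (log2 fold change 2.08 ± 0.24, adjusted p = 6.96e-08). Acly, which makes cytosolic acetyl-CoA, was at 288, 309.7 and 341 CPM against 745 and 808 CPM (log2 fold change −1.31 ± 0.09, adjusted p = 1.63e-11). Of the nuclear-encoded respiratory chain subunits, 0 of 25 were higher, 10 lower and 15 did not pass (median log2 fold change −0.2), with 5 lower without culture 1, and of the genes encoded in mitochondria, 0 of 7 were higher, 1 lower and 6 did not pass (median log2 fold change 0.16).

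Immediate-early genes were among the most abundant that rose. Of this list, which also holds genes known to respond to enzymatic dissociation, 25 of 29 were higher, 1 lower and 3 did not pass (median log2 fold change 3.43, or 3.12 with genes at 0 counts at their bound). Fos was at 4193, 5828 and 6607 CPM in the tumour cells against 273 and 233 CPM in culture (log2 fold change 4.48 ± 0.27, adjusted p = 8.85e-13). Jun was at 1770.3, 2726 and 3148 CPM against 157 and 166 CPM (log2 fold change 4.03 ± 0.23, adjusted p = 1.93e-13). The growth inhibitor Btg2 was at 1163, 1623 and 1911 CPM against 34.8 and 32.7 CPM (log2 fold change 5.53 ± 0.35, adjusted p = 1.53e-12). Fosl1 was the lower member, at 35.4 against 215 CPM. The tumour cells were digested at 37 degrees and sorted, which the labels do not describe for the cultures, so growth in the mouse and handling cannot be told apart.

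Signalling genes were described by pathway. Of the ErbB receptors, ligands and feedback genes, 11 of 19 were higher, 3 lower and 5 did not pass (median log2 fold change 0.91, or 0.82 with genes at 0 counts at their bound), and 7 were higher without culture 1. Egfr, the partner receptor of Her2, was at 103, 135 and 162 CPM against 21.5 and 32.5 CPM (log2 fold change 2.33 ± 0.22, adjusted p = 2.23e-09). Dusp6, a feedback phosphatase of the ERK pathway, was at 846, 1147 and 1849 CPM against 134 and 143 CPM (log2 fold change 3.12 ± 0.30, adjusted p = 2.41e-09). Of the TGF-beta and BMP genes, 18 of 29 were higher, 4 lower and 7 did not pass (median log2 fold change 0.91). The co-receptor Tgfbr3 was at 51.9, 94.4 and 164 CPM against 2.12 and 2.66 CPM (log2 fold change 5.46 ± 0.40, adjusted p = 2.26e-11). Of the Wnt and Notch genes, 20 of 29 were higher, 4 lower and 5 did not pass (median log2 fold change 2.08, or 1.64 with genes at 0 counts at their bound). The ligand Wnt5b was at 41.1, 80.6 and 114 CPM against 1.8 and 1.15 CPM (log2 fold change 5.7 ± 0.47, adjusted p = 2.14e-10). Of the YAP and actin genes, 8 of 28 were higher, 6 lower and 14 did not pass (median log2 fold change −0.05), a share of higher members near the background. Ccn2, a matrix-associated protein, was at 527, 689 and 904 CPM against 33.5 and 34.4 CPM (log2 fold change 4.42 ± 0.38, adjusted p = 4.87e-10), while Ankrd1 was lower at 6.94 against 191 CPM.

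The 6 tumours were not alike in every gene. F13a1, a clotting factor subunit made by macrophages, was at 112 CPM in tumour library 1 and at 2.85 CPM in the lowest, with a median of 4.75 CPM. Pou2af1, a co-activator best known from B cells, was at 4.36, 14.3 and 94.6 CPM against 3.33 and 2.97 CPM (log2 fold change 3.13 ± 1.24, adjusted p = 0.0387), and it did not pass without library 1, its highest (log2 fold change 2.16, adjusted p = 0.0967), or without culture 1 (adjusted p = 0.171) or 2 (adjusted p = 0.191). Fcgbp, a mucus protein, was highest in library 5 at 45.4 CPM, with a median of 5.46 CPM. Nptx1, a neuronal pentraxin, ran from 21 to 197 CPM, against 259.6 and 308 CPM. The SD of log2 CPM over the 6 tumours was 1.89 for F13a1, 1.57 for Cd74, 1.53 for Pou2af1 and 1.49 for Fcgbp.

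The same EpCAM-positive fraction from T cell-depleted mice was set beside these cells. Antibody and day of collection change together in that comparison, so they cannot be told apart, and the libraries of depleted cells were shallower, with 17559520 to 25601999 counts. Of 16637 features 6660 (40%) differed, 3725 (22.4%) higher and 2935 (17.6%) lower in the IgG control cells, with a median log2 fold change of 0.02. The direct comparison and those with culture share libraries, so their values are given side by side.

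Interferon genes were higher in the IgG control cells than in depleted cells. Of the interferon-gamma list, 22 of 27 were higher, 3 lower and 2 did not pass (median log2 fold change 1.9, or 1.88 with genes at 0 counts at their bound). Of the antiviral genes, 24 of 32 were higher, 0 lower and 8 did not pass (median log2 fold change 1.6), and of the MHC class I genes 17 of 23 were higher, 4 lower and 2 did not pass (median log2 fold change 0.86). Iigp1 was at 23.9, 63 and 169 CPM in IgG control cells, 0, 0.0666 and 0.415 CPM in depleted cells and 0.289 and 0.256 CPM in culture (IgG control over depleted, log2 fold change 9.17 ± 0.73, adjusted p = 1.86e-10). B2m was at 422, 714 and 1300.3 CPM in IgG control cells and at 266, 328 and 387 CPM in depleted cells (log2 fold change 1.24 ± 0.18, adjusted p = 5.28e-06), groups that did not overlap. Depleted cells also differed from culture in these lists, where 20.9% of all features were higher and 18.6% lower. They had 15 of 27 interferon-gamma genes higher and 1 lower than culture, 15 of 23 MHC class I genes higher and 0 lower, and 11 of 32 antiviral genes higher and 8 lower.

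Matrix genes differed unevenly between the EpCAM-positive groups. Of the fibrillar collagens and cross-linking enzymes, 8 of 22 were higher, 3 lower and 11 did not pass (median log2 fold change 0.19), and depleted cells had 21 of 22 higher and 0 lower than culture. Of the matricellular proteins and proteoglycans, 14 of 25 were higher, 2 lower and 9 did not pass (median log2 fold change 1.28), and depleted cells had 15 of 25 higher and 1 lower than culture. Dcn was at 781, 2041 and 2346 CPM in IgG control cells and at 0, 1.46 and 5.96 CPM in depleted cells (log2 fold change 9.98 ± 0.53, adjusted p = 1.51e-13), close to the 1.6 and 1.38 CPM of culture. Postn was at 11, 13.3 and 27.2 CPM in depleted cells (log2 fold change of IgG control over depleted 7.06 ± 0.26, adjusted p = 1.31e-16), and Igfbp5 at 0.0388, 0.0783 and 2.34 CPM (log2 fold change 11.27 ± 0.74, adjusted p = 5.5e-12). Col18a1 went the other way, with 6331, 7184 and 9401 CPM in depleted cells (log2 fold change −1.15 ± 0.09, adjusted p = 2.13e-10). Fibroblast markers, which include Dcn, also differed in this comparison, as 8 of 14 were higher, 0 lower and 6 did not pass (median log2 fold change 2.03). Macrophage markers differed in the other direction, as 3 of 20 were higher, 9 lower and 8 did not pass (median log2 fold change −1.6). The part of such cells was not tested.

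Other genes set the EpCAM-positive groups apart. Mme, the peptidase CD10 of myoepithelial cells, was at 632, 775 and 1161 CPM in IgG control cells, 2.49, 6.17 and 14.5 CPM in depleted cells and 21.4 and 29.1 CPM in culture (IgG control over depleted, log2 fold change 6.91 ± 0.59, adjusted p = 6.86e-10), and it was chosen after its values were seen. Mmp9, a gelatinase, was at 0, 0.279 and 1.21 CPM in IgG control cells, 137, 200.2 and 322 CPM in depleted cells and 1.09 and 0.742 CPM in culture (log2 fold change −8.94 ± 0.51, adjusted p = 4.95e-13). Bmp7, a secreted signal, was at 1.23, 2.39 and 4.3 CPM in IgG control cells and 101, 136 and 196 CPM in depleted cells (log2 fold change −5.66 ± 0.30, adjusted p = 1.51e-13). The protease gene Klk6 was at 0, 1.27 and 4.24 CPM in IgG control cells, 172, 286 and 470.0 CPM in depleted cells and 19.2 and 23 CPM in culture (log2 fold change −7.76 ± 0.54, adjusted p = 1.85e-11). Mitotic genes were lower in IgG control than in depleted cells, as 0 of 30 were higher, 24 lower and 6 did not pass (median log2 fold change −1.08), and Krt18 was at 2982, 3239 and 3511 CPM in depleted cells (log2 fold change −1.68 ± 0.12, adjusted p = 3.88e-11). Immediate-early genes were higher in IgG control than in depleted cells, as 24 of 29 were higher, 0 lower and 5 did not pass (median log2 fold change 1.05). Depleted cells had 21 of 29 of them higher and 2 lower than culture.

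**Figure D5:**
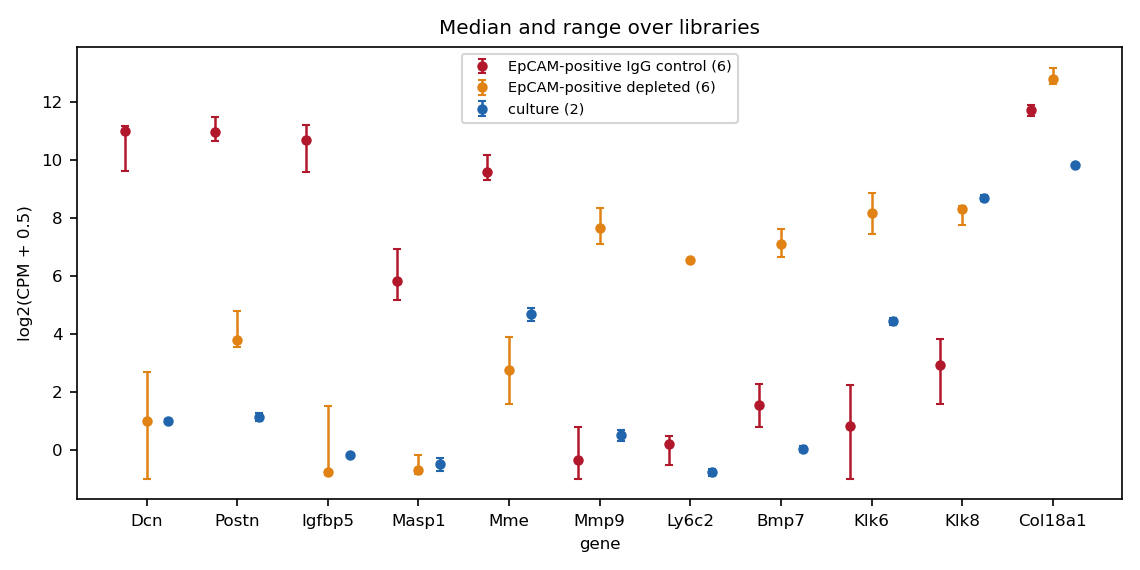
Level on the log2(CPM + 0.5) scale of 11 genes in EpCAM-positive IgG control cells, EpCAM-positive depleted cells and culture, left to right; points are medians and bars run from the lowest to the highest library (6, 6 and 2 libraries). Dcn, Igfbp5, Masp1 and Mme lie above both other groups in the IgG control cells, and Mmp9, Ly6c2 and Bmp7 in the depleted cells.

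Among IgG control tumours, EpCAM-positive cells were compared with EpCAM-negative cells without pairing, since the labels do not say which libraries share a tumour. Of 16637 features 4642 (27.9%) differed, 2409 (14.5%) higher and 2233 (13.4%) lower in the EpCAM-positive cells. Epcam, on which the cells were sorted, was at 815, 1233 and 1416 CPM in EpCAM-positive cells and 1.06, 1.59 and 2.39 CPM in EpCAM-negative cells. Of the epithelial junction genes, 33 of 34 were higher, 0 lower and 1 did not pass (median log2 fold change 4.88). Of the mitotic genes, 0 of 30 were higher, 30 lower and 0 did not pass (median log2 fold change −0.91). Of the interferon-gamma genes, 2 of 27 were higher, 4 lower and 21 did not pass (median log2 fold change −0.14). Gbp2 was at 71.4, 115 and 125 CPM in EpCAM-negative cells (EpCAM-positive over EpCAM-negative, log2 fold change −0.01 ± 0.17, adjusted p = 0.974), a range that overlapped that of the EpCAM-positive cells. Col1a1 was at 448, 1663 and 2462 CPM in EpCAM-negative cells (log2 fold change −1.67 ± 0.36, adjusted p = 0.00095). Of the fibroblast markers, which include Col1a1, 1 of 14 were higher, 8 lower and 5 did not pass (median log2 fold change −1.55). Of the macrophage markers 11 of 20 were higher, 2 lower and 7 did not pass (median log2 fold change 1.54). The part of such cells was not tested.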

How the data were processed

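RNA was measured by sequencing in 26 libraries, of which 6 of EpCAM-positive IgG control tumour cells and 2 of cultured E-A14 cells were compared. Per the labels' protocols, full-length cDNA was amplified by 10, 12 or 14 PCR cycles from 0.1 to 1.0 ng of RNA, which may distort low levels, and sequenced as single reads of 50 bases with no strand or molecular identifiers. The authors deposited raw counts per gene, and per the submitters' processing notes the reads were mapped to mm9 with STAR and DESeq2 1.22.2 was used. The sources used here do not give the counting program or annotation. From the deposited counts, features passing edgeR's filterByExpr were tested with edgeR 4.0.16 (R 4.3.3) by the robust quasi-likelihood test, with TMM factors, 1 coefficient per group over all 26 libraries and Benjamini-Hochberg adjustment. CPM values are counts over TMM-scaled library sizes. The procedure was tested on simulated counts. Alternatives were DESeq2 1.42.0, other scalings, filters, the 8 libraries alone, a replicate block and leaving out each library. Genes were named by size of change, by smallest p within lists (up to 4 a list), by share of counts, by spread and from a hand-picked set. Members and lists were chosen with earlier results of these data known, and Krt15, Csn3, Lcn2, Iigp1, Atf3, Atf4, Trib3, Il1a, Tnf, Mme, Csf1r, Cebpb, Myc, Mycn, C3, Arg1, S100a8 and Abcg1, and other list members given only by their means, after their values were seen. Genes absent from a group were set at a floor of 3 counts per library, and this and the counting intervals cover counting error only. Some named genes are not reported here.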

Additional observations from a re-analysis of the deposited data

Results flagged for a closer look

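Single tumour libraries lay far from the other 5 in 20 of 130 values tested by Dixon's criterion. Chance flags about 1 in 20 groups of normally distributed values. The values were CPM, and with the other 5 libraries at 0 a few counts suffice, as for Siglecg (2 counts) and Wnt7a (9 counts). F13a1, Cd74, H2-Aa, Pou2af1 and Fcgbp had been named for their spread among the 6 tumours. For both reasons the share is not to be read against the rate of 1 in 20. Library 1 held 112 CPM of F13a1, 248 CPM of Cd74, 76.1 CPM of H2-Aa, 1452 CPM of H2-K1, 94.6 CPM of Pou2af1 and 1.02 CPM of Slc7a11, each the highest of the 6. Library 6 was lowest for Trp63 at 118 CPM, Slc2a1 at 231 CPM, Dcn at 781 CPM, Atf4 at 214 CPM and Trib3 at 23.3 CPM. Library 4 was highest for Ehf at 287 CPM, Elf5 at 47.1 CPM and Mfge8 at 2283 CPM. Library 2 was highest for Wnt7a at 0.296 CPM, Adm at 159 CPM and Klk6 at 4.24 CPM. Library 5 was highest for Siglecg at 0.0606 CPM and Fcgbp at 45.4 CPM, and library 3 was lowest for Cd200 at 1021 CPM.

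In the direct test, 6660 genes differed between EpCAM-positive IgG control and EpCAM-positive depleted cells. Of the named genes, 3 were called in opposite directions against culture. Krt18 was lower than culture in IgG control cells and higher in depleted cells, with a direct log2 fold change of −1.68. Klk6 had the same pattern at −7.76. Mme was higher than culture in IgG control cells and lower in depleted cells, with 6.91.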

How the results depend on the processing

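Against culture, edgeR's main counts of 4606 higher and 3731 lower became 4852 and 3712 with DESeq2, 4382 and 3612 with only the 8 libraries compared, and 4154 and 3680 with no filter on low counts. Requiring a change of at least 1 log2 unit left 1702 lower. Leaving out 1 library gave 3264 to 4725 higher and 2964 to 3888 lower against culture, 3453 to 3707 higher and 2660 to 2858 lower against depleted cells, and 2230 to 2426 higher and 1831 to 2158 lower against EpCAM-negative cells. With the replicate number as a block there were 4291 higher and 3498 lower against culture, 3643 and 2907 against depleted cells, and 2345 and 2279 against EpCAM-negative cells. That block gives each number the same effect in every group, so it is not a paired test of the 2 sorted fractions. Deviations from the group mean correlated at 0.006 and 0.027 between same-numbered tumour and culture libraries. The deviations of 2 cultures mirror each other, so these values are a weak check of pairing. Between same-numbered EpCAM-positive and EpCAM-negative libraries the correlations were 0.080 to 0.289, and 5 of 6 correlated best with their own number. The labels tie numbers to no shared mouse. Of 2099 values of named genes under the alternatives, 2072 kept direction and side of the threshold, 24 lost it, 3 gained it and 0 reversed. Many of these genes were named for large changes or small p, which favours such a result. Of 735 counts of list members called, 704 stayed close to the main count and 31 moved, and 37 of 49 lists stayed close under every alternative. With 2 cultures, which may be technical replicates, small changes are limited by their spread, and amplified cDNA limits levels near 1 CPM.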

Other observations

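Single genes usually named for blood cells differed from culture in both directions. S100a8, a calcium-binding protein of neutrophils, was at 1.96, 2.76 and 3.06 CPM in the tumour cells against 29.1 and 30.9 CPM in culture (log2 fold change −3.52 ± 0.29, adjusted p = 1.8e-10). Of the neutrophil markers, 0 of 8 were higher, 2 lower and 6 did not pass (median log2 fold change −0.88, or 0.19 with genes at 0 counts at their bound), a share of lower members near the 22.4% of all features. Mcpt8, a protease of basophils, was at 0, 0.195 and 0.279 CPM in EpCAM-positive IgG control cells, 10.6, 13.9 and 18.5 CPM in EpCAM-positive depleted cells and 10.9 and 11.3 CPM in culture. The IgG control range lay below both other groups. Arg1, which breaks down arginine and is well known from macrophages, went the other way, at 109, 230.4 and 301 CPM in IgG control cells against 23.6 and 26.1 CPM in culture (log2 fold change 3.16 ± 0.61, adjusted p = 9.33e-05). These genes other than Mcpt8 were chosen after their values were seen.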
